A study of Homo sapiens with 4 samples.

Results

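BACH1 binding was examined around 7 genes of one circuit: BACH1 itself, NFE2L2 and NFE2L1, which encode related factors, the small MAF genes MAFG, MAFF and MAFK, and KEAP1, a regulator of the NFE2L2 product. Peak lists came from ChIP-seq, the sequencing of chromatin fragments precipitated here with a rabbit antibody to BACH1. The cells were Calu3, established from a human lung adenocarcinoma, and 16HBE14o-, derived from human bronchial epithelium and immortalised. Both lines were cultured in DMEM with 10% FBS, and no treatment or genotype separates them. Each line had 2 replicates, which the authors combined into 1 list by the irreproducible discovery rate. That procedure compares how peaks rank between replicates, and listed peaks could not be checked here in each replicate. The peaks were chosen by position only: a peak belonged to a gene when its summit fell in a window around that gene on the hg19 build. In all, 29 of 13661 peaks met this rule, 18 of 10246 in Calu3 and 11 of 3415 in 16HBE14o-. The windows spanned 956 kb together and are approximate neighbourhoods, so a peak in one is not thereby assigned to the gene it is named for.

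BACH1 and the NRF factors are CNC-type basic leucine zipper proteins. They bind antioxidant response elements only as partners of a small MAF protein, and BACH1 commonly represses where NRF2 activates. NFE2L2 encodes NRF2, which KEAP1 holds at low levels by directing it to a ubiquitin ligase, and NFE2L1 encodes NRF1, a membrane-anchored relative known for control of proteasome genes. MAFG, MAFF and MAFK encode the small MAF proteins, which lack an activation domain of their own and are shared by BACH1 and the NRF factors. In epithelia of the airway this circuit governs the response to oxidants and haem.

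Sequence under the peaks was not analysed here, because no hg19 genome was used. RefSeq promoters on GRCh38.p14, each running from 250 bases before to 50 after a start site, were searched instead for letters common to the elements these proteins bind. The table held 12 promoters of 6 of the genes, and MAFK had no entry. The 7-letter core TGACTCA (or TGAGTCA on the other strand) stood in 1 of the 12, a BACH1 promoter, and in 4.95% of all 35116 promoters. The longer TGACTCAGC, which holds that core, was in 0 of the 12 and in 0.561% of all. The looser TGANNNNGC, which every TGACTCAGC also matches, was in 5 of the 12, against 41.8% of all, with 1 promoter each of BACH1, KEAP1, MAFF, MAFG and NFE2L2. The BACH1 promoter with the core is printed because BACH1 is both the protein precipitated and one of the 7 genes. Its capitals mark the match, which reads TGAGTCA as printed, so that TGACTCA is on the other strand. The first capital is at −48 bp from the start site. The stretch is chr21:29298672-29298971 on GRCh38.p14, plus strand.
BACH1 promoter: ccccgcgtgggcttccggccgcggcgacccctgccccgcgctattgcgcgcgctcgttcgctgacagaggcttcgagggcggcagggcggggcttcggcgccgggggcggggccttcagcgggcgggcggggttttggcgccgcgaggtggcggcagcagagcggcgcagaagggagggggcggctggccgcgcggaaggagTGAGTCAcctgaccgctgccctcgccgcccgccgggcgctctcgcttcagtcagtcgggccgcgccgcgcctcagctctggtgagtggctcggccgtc
A match describes these letters and is not a binding site. Because the builds differ, the stretch was not placed against the peaks described next.

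BACH1 peaks were present in the windows of all 7 genes in 16HBE14o- and of 6 of the 7 in Calu3, where NFE2L2 had none. In 6 windows, those of BACH1, NFE2L1, KEAP1, MAFG, MAFF and MAFK, 1 Calu3 peak overlapped 1 16HBE14o- peak, and the paired summits lay 1 to 36 bp apart. The small MAF genes held most of the peaks, with 13 of the 18 in Calu3 and 7 of the 11 in 16HBE14o-. The 3 CNC genes held 4 in Calu3 and 3 in 16HBE14o-, and KEAP1 held 1 in each line. The MAFG, MAFF and MAFK windows spanned 110, 115 and 113 of the 956 kb. With q under 0.05, these genes held 2, 3 and 3 of 13 Calu3 peaks. At or above the median of column 9, the score in the q column, they held 0, 1 and 1 of 6 16HBE14o- peaks. The majority in 16HBE14o- thus depended on weak peaks. Each list pools its replicates, so the values below have no replicate error and no difference between the lines was tested.

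The strength of a peak is given as the authors deposited it and was ranked within its own list. For Calu3 it is a fold enrichment, whose list median was 4.13 and maximum 53.0. For 16HBE14o- it is a peak signal on a scale that the sources used here do not state, with a median of 30.1 and a maximum of 366. The numbers of the lines therefore cannot be set against each other, nor can ranks from lists of such different length. Read depth and peak caller are unknown for both lists, which were deposited in different peak formats. A peak missing from a list was thus not detected by an unknown caller at an unknown depth.

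**Figure D1:**
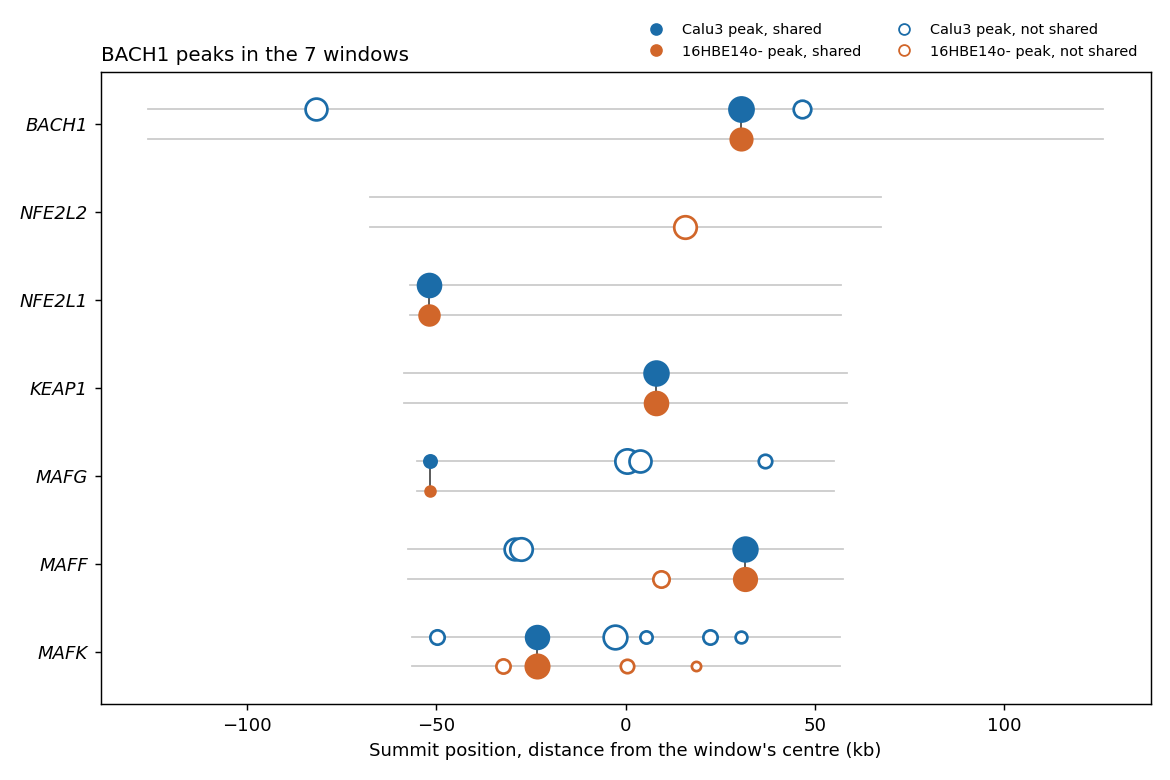
Positions of BACH1 peak summits in the windows of the 7 genes, in kb from the centre of each window (grey lines, drawn to scale), with Calu3 above and 16HBE14o- below. Filled circles are peaks that overlap one of the other line by at least 1 bp and are joined by a line, open circles are peaks that do not, and larger circles rank higher in their own list. In 6 windows a pair is joined, and NFE2L2 has a single 16HBE14o- peak.

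At BACH1, the repressor's own gene, Calu3 had 3 peaks and 16HBE14o- had 1. On chromosome 21, the strongest Calu3 peak spanned 30672382 to 30672896. Its fold enrichment was 14.5 and its rank 456, inside the strongest 4.45% of its list. By −log10 p, at 40.7, this peak ranked lower, at 793. The single 16HBE14o- peak lay within it, from 30672525 to 30672764, with a signal of 40.0 and rank 933 (27.3% of the list). The summits, at 30672642 in Calu3 and at 30672645 in 16HBE14o-, were 3 bp apart. The other Calu3 peaks had no 16HBE14o- counterpart. One had its summit at 30560437, 112 kb away, with a fold enrichment of 6.34 (rank 2509). Another, at 30688699 and 16.1 kb from the strongest peak, had a fold enrichment of 3.84 (rank 5781, q = 0.0142). This window, which runs from 30516 to 30768 kb, is the widest of the 7, and the next protein-coding genes in RefSeq order are MAP3K7CL and GRIK1. The nearest peaks beyond it were 261 kb away in Calu3 and 2301 kb away in 16HBE14o-.

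NFE2L2 was the gene with a peak in 1 line only. In 16HBE14o- the peak lay on chromosome 2 from 178128167 to 178128406, with a signal of 49.0 and rank 624 (18.3% of the list). The window of 178045 to 178180 kb held 0 Calu3 peaks, and the Calu3 summit nearest to this peak was 95.1 kb away. That Calu3 peak lay 11.9 kb outside the window and spanned 178032998 to 178033294. Its fold enrichment was 6.21 (rank 2576). It overlapped a 16HBE14o- peak from 178033006 to 178033245 with a signal of 51.2 (rank 582). HNRNPA3 and AGPS are the neighbouring protein-coding genes of NFE2L2 in RefSeq order. The edge of the window thus decided whether NFE2L2 counted as having a Calu3 peak nearby. It did not affect the 16HBE14o- peak inside the window, which had no Calu3 counterpart in either case.

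NFE2L1 had 1 peak in each line, and they coincided. On chromosome 17, the Calu3 peak spanned 46079990 to 46080379. Its fold enrichment was 8.30, which gave it rank 1538 (15.0% of the list). By −log10 p, at 44.1, the same peak ranked 706. In 16HBE14o- the peak ran from 46080049 to 46080288, with a signal of 33.0 and rank 1386 (40.6% of the list). The summits were 18 bp apart. Both lay 5.2 kb inside the left edge of a window of 46075 to 46189 kb. COPZ2 and CBX1 are the genes next to NFE2L1.

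KEAP1, whose product restrains NRF2, likewise had a single coinciding pair. The Calu3 peak spanned 10613318 to 10613654 on chromosome 19 and reached a fold enrichment of 12.2, rank 688 (6.71% of the list). By −log10 p, at 31.6, it ranked lower, at 1106. In 16HBE14o- it ran from 10613359 to 10613598, with a signal of 54.3 and rank 519 (15.2% of the list). The summits were 33 bp apart. No other BACH1 peak was near: the closest one of the same list was 242 kb away in Calu3 and 2549 kb away in 16HBE14o-. The window ran from 10547 to 10664 kb, and the genes next to KEAP1 are PDE4A and S1PR5.

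MAFG had the strongest Calu3 peak of the whole set, and it had no counterpart in 16HBE14o-. This peak spanned 79881285 to 79881819 on chromosome 17, near the middle of the window of 79826 to 79936 kb. Its fold enrichment was 18.0 and its rank 262, inside the strongest 2.56% of the list. By −log10 p, at 52.2, this peak ranked 546. A second Calu3 peak had its summit at 79884857, 3.39 kb further on, with a fold enrichment of 6.52 (rank 2364). The 16HBE14o- peak nearest to the strongest Calu3 summit was 52.1 kb away. That peak was the only one of 16HBE14o- in the window, ran from 79829203 to 79829442 and was among the weakest of its list, with a signal of 17.9 and rank 3315 (97.1% of the list). It met a Calu3 peak from 79829256 to 79829446 that was weak as well, with a fold enrichment of 2.77, rank 8908 and a deposited −log10 q of 0, which corresponds to q = 1.0. The summits of this weak pair were 36 bp apart and lay 3.3 to 3.4 kb inside the window's left edge. The remaining Calu3 peak, at 79917744, had a fold enrichment of 2.98 (rank 8278, q = 0.98). The nearest peaks outside the window were close to its left edge, 2.12 kb away in Calu3 (fold enrichment 2.63, rank 9340) and 7.65 kb away in 16HBE14o- (signal 21.2, rank 3135). SIRT7 and PYCR1 are the protein-coding neighbours of MAFG. The shared site of MAFG thus differed in strength from its main Calu3 site.

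At MAFF the strongest peak of each line was the shared one. In Calu3 it spanned 38636893 to 38637225 on chromosome 22 and had an 11.4-fold enrichment, rank 807 (7.88% of the list). By −log10 p, at 58.0, it ranked 461. In 16HBE14o- it ran from 38636956 to 38637195, with a signal of 48.2 and rank 634 (18.6% of the list). The summits were 1 bp apart, the closest of the 6 pairs. Calu3 had a further couple of peaks 1.54 kb apart, with summits at 38576246 and 38577787 and fold enrichments of 6.18 (rank 2598) and 7.41 (rank 1904). In 16HBE14o- the other peak was at 38614873, with a signal of 26.6 (rank 2205), 22.2 kb from the nearest Calu3 summit. The window ran from 38548 to 38663 kb, and PLA2G6 and TMEM184B are the protein-coding neighbours of MAFF.

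MAFK had the most peaks of the 7 genes in both lines, 6 in Calu3 and 4 in 16HBE14o-, of which 1 pair overlapped. In Calu3 the shared peak spanned 1553024 to 1553323 on chromosome 7 and had a 7.86-fold enrichment, rank 1698 (16.6% of the list). In 16HBE14o- it ran from 1553037 to 1553276 with a signal of 64.1 and rank 379 (11.1% of the list), the strongest 16HBE14o- peak of the set. The summits were 13 bp apart. In Calu3 another peak was stronger than the shared one: it spanned 1573518 to 1573813 and had an 11.2-fold enrichment, rank 839 (8.19% of the list). The nearest 16HBE14o- peak to it had its summit 3.36 kb away, at 1577029, with a signal of 23.7 (rank 2768).

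The other MAFK peaks were weak in both lists. In Calu3 their summits were at 1526715, 1582027, 1598763 and 1607025, with fold enrichments from 2.70 to 3.16 and ranks from 7800 to 9139. The first 3 of these had a q of 0.429, 0.651 and 0.0502, and the last a q of 0.0101. In 16HBE14o- the peak at 1544135 had a signal of 24.4 (rank 2630), and the one at 1595153 had a signal of 12.5 (rank 3390), near the end of its list. The summit at 1595153 was 3.61 kb from that of the nearest Calu3 peak. Beyond the window's left edge the nearest peaks were 6.24 kb away in Calu3 (fold enrichment 2.74, rank 8994) and 21.4 kb away in 16HBE14o- (signal 31.9, rank 1496). The window ran from 1520 to 1633 kb, and INTS1 and TMEM184A are the neighbouring protein-coding genes of MAFK.

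**Figure D2:**
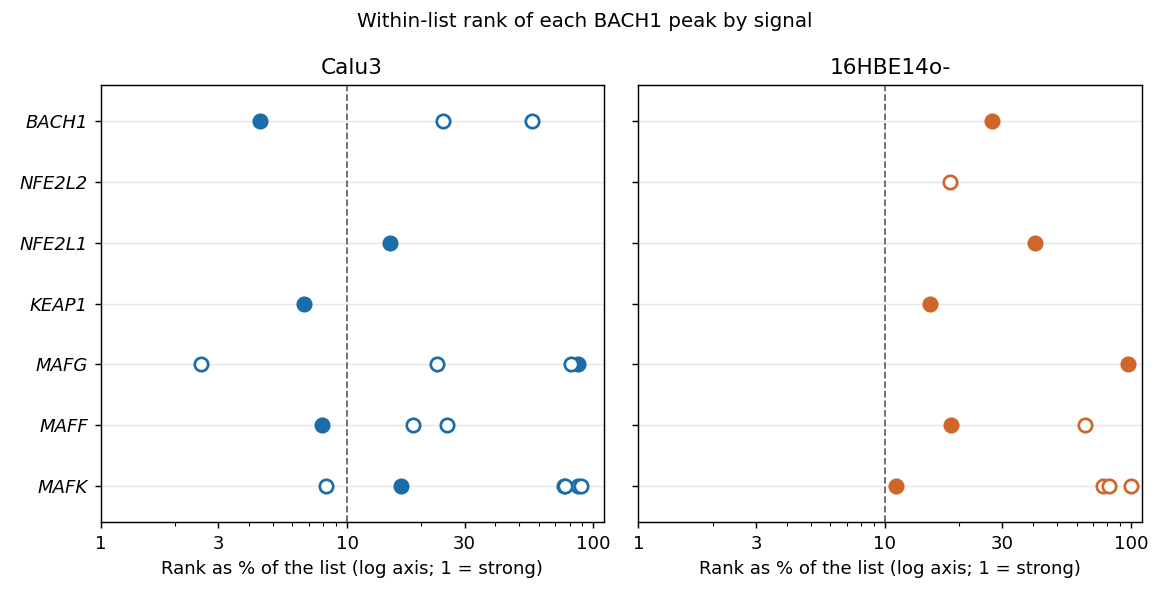
Rank of each BACH1 peak by signal as a percentage of its own list (log axis, small values are strong), by gene, for Calu3 on the left and 16HBE14o- on the right; filled circles are shared peaks and the dashed line marks the strongest 10%. In Calu3, 5 peaks of 5 genes lie left of the line, while none of the 11 peaks of 16HBE14o- does.

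Ranked within Calu3, the 18 peaks ran from 262 to 9139, with a median of 2436. Of these, 5 (27.8%, 95% exact interval 9.69 to 53.5) were in the strongest 10% of the list. They were the leading peaks of MAFG, BACH1, KEAP1, MAFF and MAFK, 1 each. The strongest 20% had 8 of the 18 (44.4%, interval 21.5 to 69.2) and at least 1 from each of the 6 genes with a Calu3 peak. Ranked by −log10 p instead, it had 7 of the 18 (38.9%, interval 17.3 to 64.3), an interval that includes 20%. In 16HBE14o- the ranks ran from 379 to 3390 with a median of 1386. Among its 341 strongest peaks, which are 9.99% of the list, stood 0 of the 11 (95% exact interval up to 28.5%; the limit of 3 counts that a count of 0 allows is 27.3%). The strongest 20% held 4 of the 11 (36.4%, interval 10.9 to 69.2), from NFE2L2, KEAP1, MAFF and MAFK. The shared pairs of KEAP1, MAFF and MAFK were the 3 that stood in the strongest 20% of both lists. Intervals cover counting error only and take peaks as independent, although several share a window. They make no allowance for windows chosen with earlier results of these data known. The interval for the strongest 10% of Calu3 reaches the share of the whole list.

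Of the 18 Calu3 peaks, 6 (33.3%, 95% exact interval 13.3 to 59.0) overlapped a 16HBE14o- peak by at least 1 bp, against 15.3% of all Calu3 peaks. Of the 11 peaks of 16HBE14o-, 6 (54.5%, interval 23.4 to 83.3) overlapped a Calu3 peak, against 46.4% of that list. Both intervals include the share of the whole list. All 6 pairs had summits within 50 bp, as had 88% of all shared Calu3 peaks, and the median distance was 15.5 bp in the windows and 18 bp over the list. A q under 0.05 was deposited for 13 of the 18 Calu3 peaks (72.2%, interval 46.5 to 90.3), close to the 73.3% of the whole list. The 5 peaks above that limit were 2 of MAFG and 3 of MAFK. In the 16HBE14o- list the peaks of the windows were all 240 bp wide, as were 98.4% of the list, whereas the Calu3 peaks of the windows were 153 to 535 bp wide.

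**Figure D3:**
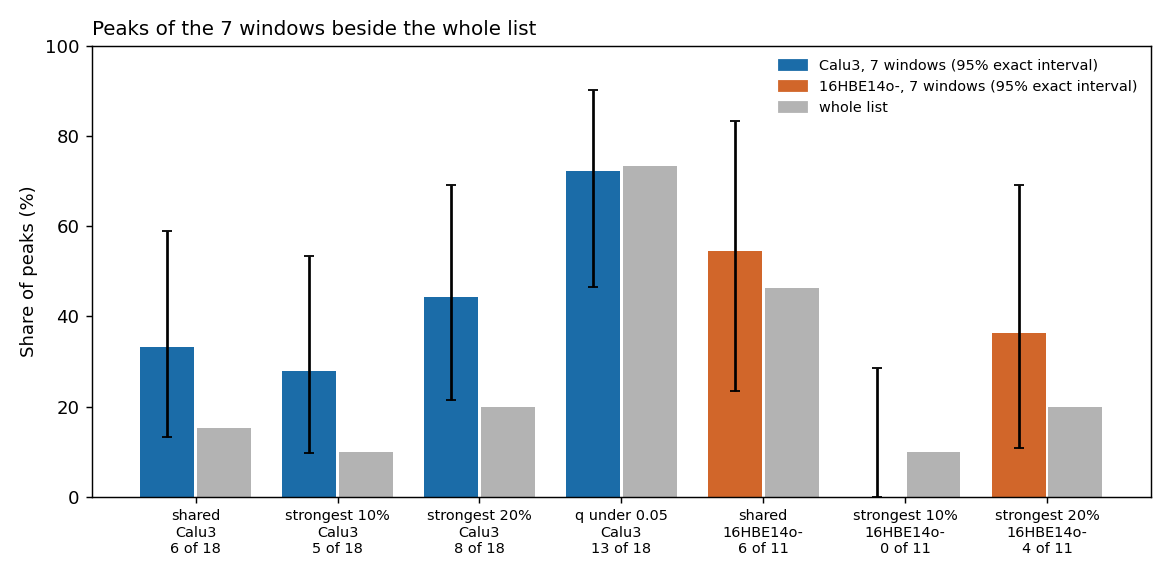
Share of BACH1 peaks (%) in the 7 windows (coloured bars, with 95% exact binomial intervals for counting error) that were shared, in the strongest 10% or 20% of their list, or below a q of 0.05, beside the same share of the whole list (grey bars). The intervals of the 7 windows include the whole-list share for all but the strongest 20% of Calu3, at 44.4% with a lower bound of 21.5%. Ranked by −log10 p, that lower bound was 17.3%. Peaks are taken as independent, although several share a window.

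The number of peaks was also set beside stretches of equal width, made by cutting the autosomes and the X chromosome from end to end. Such stretches include gene-poor and unmapped sequence, and gene content was not matched. The windows were also chosen with earlier results of these data known. The shares of stretches therefore describe the counts and do not measure how rare a window fixed in advance would be. Over the 7 windows there were 18.8 peaks per Mb in Calu3 and 11.5 in 16HBE14o-, against 3.38 and 1.13 per Mb over the whole span. MAFK had the least common counts: 0.179% of stretches of 113 kb held 6 or more Calu3 peaks, and 0.265% held 4 or more of 16HBE14o-. For MAFG, 0.931% of stretches of 110 kb held 4 or more Calu3 peaks, while 9.25% held at least 1 of 16HBE14o-. For MAFF, 2.79% of stretches of 115 kb held 3 or more Calu3 peaks and 2.09% held 2 or more of 16HBE14o-.

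The Calu3 counts of MAFK and MAFG depended on weak peaks, and that of MAFF did not. Among Calu3 peaks with q under 0.05, MAFK kept 3 (1.34% of stretches held as many) and MAFG kept 2 (5.01% of stretches). MAFF kept its 3 Calu3 peaks, for which the share of stretches was not recomputed. Among 16HBE14o- peaks at or above the median of column 9, MAFK kept 1, and 5.39% of stretches held at least 1. MAFF kept 1 there as well.

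The windows of the remaining genes held numbers that were more usual for their width. For BACH1, 9.59% of stretches of 252 kb held 3 or more Calu3 peaks, and 17.9% held at least 1 of 16HBE14o-. For NFE2L1, with 1 peak in each line, 25.8% of stretches of 114 kb held at least 1 Calu3 peak and 9.51% at least 1 of 16HBE14o-. For KEAP1, also with 1 in each, the shares over 117 kb were 26.4% for Calu3 and 9.79% for 16HBE14o-. For NFE2L2, 11% of stretches of 135 kb held at least 1 peak of 16HBE14o-. At least 1 Calu3 peak was in 29.3% of them, so that an absence such as that at NFE2L2 was the more common state.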

How the data were processed

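Chromatin from 2 replicates per line was sonicated, precipitated with the BACH1 antibody and size-selected to 200 to 300 bp, per the labels' protocols. Both replicates of a line were combined by IDR into 1 list, per the labels and file headers. The build is hg19, per the submitters' processing notes. Aligner, caller, controls and read depth are not given in the sources used. Each Calu3 peak has a deposited fold enrichment (so read from the format and values), −log10 p and −log10 q. Each 16HBE14o- peak has a deposited signal whose scale is not stated. The browser score of each list and the 16HBE14o- score in the q column, which goes below 0 and was not read as −log10 q, are also deposited.

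Summits (start plus offset) were placed in the windows, peaks ranked within their list by fold enrichment or signal (ties share the best rank), and peaks called shared at an overlap of 1 bp or more. Coordinates are 1-based. Every peak of the windows is named; the nearest peaks outside are given for BACH1, NFE2L2, MAFG and MAFK. Shares have exact (Clopper-Pearson) 95% intervals. No test between lines was possible. The genes, windows and settings were chosen with earlier results of these data known. The promoter search was added after the files were seen; the planned motif search under peaks and the counts at other pathway genes needed an hg19 genome or annotation and were not run. Promoters and gene order are from RefSeq (GRCh38.p14). The functions were tested on simulated data. Python 3.11.15, numpy 2.4.6, pandas 2.3.3, scipy 1.17.1 and matplotlib 3.10.9 were used.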

Additional observations from a re-analysis of the deposited data

How the results depend on the processing

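Of 34 recomputed counts, 30 stayed within 1.5 times the reported value. Keeping peaks at or above the median of column 9 in each list left 11 Calu3 and 6 16HBE14o- peaks in the windows, by construction of a shorter list. Widening the strong class to 20% of the list gave 8 Calu3 peaks and 4 of 16HBE14o-, also by construction. The number of genes with a peak ran from 5 to 7 in each line: windows 25 kb shorter at each end lost NFE2L1 in both lines and MAFG in 16HBE14o-, and windows 50 kb longer gained NFE2L2 in Calu3. Per gene, across window lengths and thresholds, MAFK had 2 to 9 Calu3 peaks and 1 to 5 of 16HBE14o-, and MAFG 2 to 5 and 0 to 2 in the same order of lines; MAFF had 1 or 2 in 16HBE14o- and BACH1 2 or 3 in Calu3. The strongest 20% of Calu3 ranked by −log10 p, a setting chosen after seeing the data, held 7. Shared peaks numbered 5 or 6 under all 4 alternatives, which changed the threshold or the rule for sharing. They were not recounted for changed windows, and the shorter windows leave out the pairs of NFE2L1 and MAFG. Ranking 16HBE14o- by column 9 was not run, since 1055 peaks (30.9%) tie at its highest value. No paired analysis was possible because the deposited peaks of a line carry no replicate number, and for the same reason no replicate could be left out.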

Other observations

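The order of the Calu3 peaks depended on the deposited measure used to rank them. By fold enrichment MAFG (rank 262), BACH1 (rank 456) and KEAP1 (rank 688) led, whereas by −log10 p the leading peaks were those of MAFF (rank 461), MAFG (rank 546) and NFE2L1 (rank 706). KEAP1 then ranked 1106, outside the strongest 10%, and NFE2L1 stood inside it, so that the count in that class was 5 by either measure but the genes differed. The difference was noticed after the values were seen and was not tested.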
